A study of Mus musculus with 6 samples.

Results

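Gpr125+ cells sorted from the distal region of the pubertal mouse mammary gland, where the terminal end buds (TEBs) lie, were compared with Gpr125+ cells sorted from the region nearest the nipple. The comparison used every library that the labels assign to either population, 2 TEB-distal (below, distal) and 2 nipple-proximal (below, proximal), which is 4 of the 6 RNA-seq libraries of the series. The 2 libraries of Gpr125-negative cells entered no comparison. All 4 libraries came from mammary glands of 6-week-old Adgra3-lz/+ mice, and both abdominal glands of 5 mice were pooled for each. The lz allele carries β-galactosidase joined to Gpr125 at its first membrane-spanning segment and is driven by the Adgra3 locus itself, so every sorted cell retained only 1 wild-type copy of Adgra3. Lymph nodes were taken out, and the place where they had been was the landmark for dividing each gland. Per the study's methods, cells were stained with biotinylated antibodies to CD31 (endothelium), CD45 (leukocytes), TER119 (erythroid cells) and CD140a (the fibroblast receptor encoded by Pdgfra). Their use as an exclusion gate is not spelled out there. Cells that cleaved the β-galactosidase substrate FDG and carried high surface CD49f (integrin α6) were collected. The labels do not say whether the libraries of a population came from separate cohorts of mice, so p-values measure only the spread between these libraries, which may in part be technical.

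In the pubertal gland, ducts lengthen from TEBs, bulbous tips whose outer layer of cap cells divides, borders the surrounding matrix directly and gives rise to the basal layer of the new duct. Ducts near the nipple are older, and their basal layer consists largely of contractile myoepithelial cells. Gpr125, the product of Adgra3, is an adhesion G-protein coupled receptor with no known ligand. A comparison of the 2 locations asks how cells that share this receptor differ between an advancing tip and an established duct.

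Depth was similar in the 4 libraries, with 24438147 and 29279042 counts in the distal and 20134890 and 25184436 in the proximal libraries. Levels are given as CPM, the count of a gene relative to the library total, after TMM scaling, a correction for composition, always with the first library of a population before the second. A level of 3 counts, taken as the smallest that can be told from 0, was 0.103 to 0.144 CPM, which covers counting error only. Adgra3 had 385 and 142 counts in the distal and 391 and 262 in the proximal libraries, and Itga6, which encodes CD49f, had 183 and 88.8 against 113 and 96.7 CPM, so that the populations overlapped for both genes that defined the sort. All 12 basal markers on a fixed list passed the expression filter, among them Krt14 (771 and 4755 CPM distal, 3320.5 and 4050.5 proximal) and Acta2 (1374 and 7863 against 1370.2 and 3215 CPM), which encodes smooth muscle actin. Their summed level was 3839.7 and 23315 CPM in distal and 9217 and 14226 in proximal libraries, so that both the lowest and the highest value belonged to distal cells. Pearson's r over the log2 levels of 15682 genes was 0.827 for the distal and 0.954 for the proximal pair of libraries, and 0.881 to 0.893 for pairs that cross populations. A 4-fold or larger gap separated the distal libraries from each other in 2988 genes (19.1%), and the proximal libraries from each other in 405 (2.58%).

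Markers of cell types outside the basal layer were read in the same libraries by the number of genes whose 2 populations did not overlap and differed at least 2-fold, which over all genes tested was 11.1% higher in distal and 9.20% higher in proximal cells. Of 10 endothelial markers tested, 4 were higher in both proximal libraries and 0 in both distal libraries, but their summed level, 20.4 and 25.1 CPM in distal libraries, was 235 CPM in the first proximal library and 28.04 in the second. Without that first library, 2 of the 10 were higher in proximal cells, and without each of the others 6, 6 and 9. Tie1, an endothelial receptor tyrosine kinase, had 1 and 1 counts in the distal and 244 and 34 in the proximal libraries, and Cdh5, the endothelial cadherin, 123 and 1 against 530 and 34. Of 6 pericyte markers tested, 3 were higher in both proximal libraries (summed level 6.37 and 13.8 CPM in distal and 27.1 and 46.8 in proximal libraries). Rgs5, the most widely used of them, had 0 counts in both distal and 11 and 334 in the proximal libraries, whereas Abcc9 and Higd1b had 0 in all 4. Fibroblast markers ran the other way although the staining included CD140a, with 7 of 9 higher in both distal libraries (summed level 119 and 272 CPM in distal and 80.1 and 57.8 in proximal libraries). Leukocyte markers were higher in proximal cells for 3 and in distal cells for 1 of 11 (1 and 2 without the first proximal library) and summed to 35.4 and 41.8 CPM in distal and 90.3 and 56.6 in proximal libraries. Luminal hormone-sensing markers were higher in distal cells for 5 and in proximal cells for 1 of 11, and luminal secretory markers for 4 and 1 of 8. Their summed levels overlapped, and Krt8 weighs heavily in the first sum (27376 and 48741 counts in distal, 25028 and 18818 in proximal libraries). The first distal library was at least 2-fold above the second for 3 of the 11 and 6 of the 8, and the reverse held for 2 and 0. Prlr, a hormone-sensing marker that did not pass the filter, had 2983 and 0 counts in the distal and 7 and 3 in the proximal libraries. The sums were 1804 and 2372 CPM in distal and 2074 and 1516 in proximal libraries for the first list and 261 and 49.04 CPM in distal and 125 and 91.2 in proximal libraries for the second. No erythroid marker passed the filter. In pooled cells, fewer cells of a type and less RNA per cell cannot be told apart, and the part of these other cell types in the differences below was not tested.

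**Figure D1:**
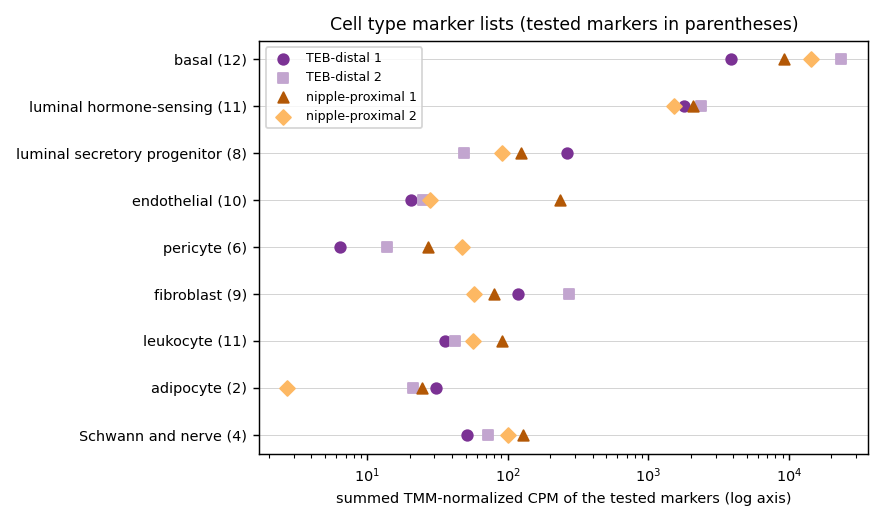
Summed TMM-normalized CPM (log axis) of the tested markers of 9 cell types in each library, with the number of tested markers in parentheses. The first distal library is lowest and the second highest for basal markers (3840 and 23315 CPM), and the first proximal library stands above the other 3 for endothelial markers (235 CPM against 20.4 to 28.04).

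The question across all genes was which differed between the 2 locations by more than libraries of 1 location did. No gene passed edgeR's quasi-likelihood test between the 2 populations at a false discovery rate (FDR) below 0.1 with a difference of 2-fold or more (0% of 15682 genes tested, smallest FDR 0.663), so that no difference given below passed it. An unadjusted p-value under 0.05 was reached by 868 genes (5.54%), of which 425 were higher in distal and 443 in proximal cells. DESeq2 on the same libraries and thresholds called 121 genes higher in each direction (0.772% of the genes tested, in each direction). Because the common biological coefficient of variation was 0.722, and because 2 libraries against 2 cannot give a two-sided exact permutation p below 0.333, genes are described here by whether the populations overlapped. A gene is called separated when both libraries of one population lay above both of the other and the fitted difference was at least 2-fold. By that description 1736 genes were higher in distal cells (11.1% of those tested) and 1442 in proximal cells (9.20%). These shares are the background for every count below that uses all 4 libraries, and separation carries no test. Of the DESeq2 calls, 118 of 121 and 121 of 121 were separated in the same direction. Counts of separated genes depend on how many libraries must agree, and on leaving out single libraries (first and second distal, then first and second proximal) they were 3044, 3308, 2612 and 2243 for distal (19.4, 21.1, 16.7 and 14.3% of the genes tested) and 3540, 3627, 2064 and 1881 for proximal cells (22.6, 23.1, 13.2 and 11.99%). Where leaving out a library moves the count of a gene family by over 1.5 times, the 4 counts are given below in that order. Their background is the matching leave-one-out share just given, not 11.1% or 9.20%. That share rises whichever library is left out, so a family count that stays level falls relative to it. Leaving out the first or the second distal library raised the edgeR count from 0 to 734 and 1366 genes, with the remaining distal library assumed to vary as much as the others. Without the first or the second proximal library, edgeR called 2 and 13 genes.

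**Figure D2:**
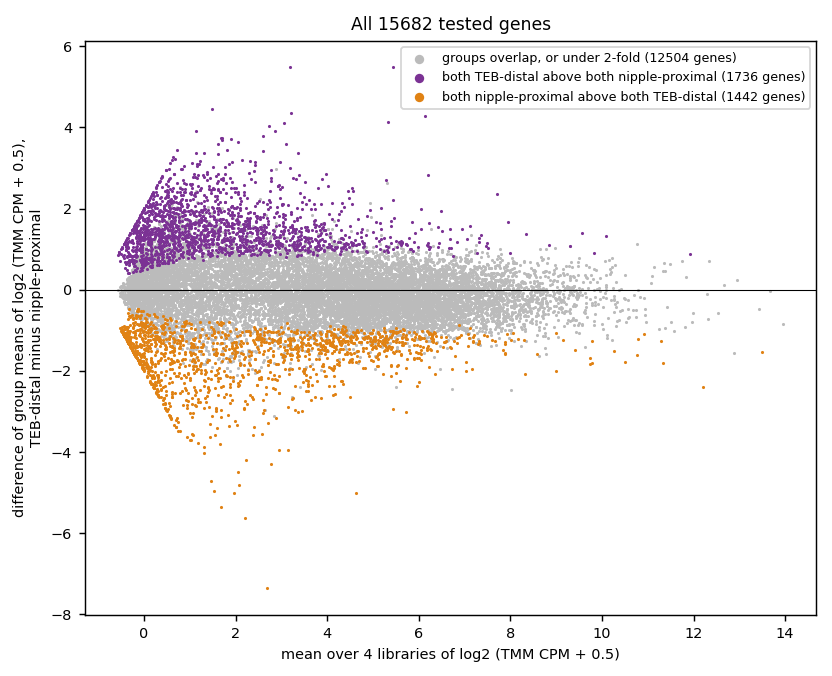
Each of 15682 tested genes by its mean level (horizontal axis, log2 of TMM CPM plus 0.5, averaged over 4 libraries) and the difference between the population means on the same scale (vertical axis). Separated genes are coloured, 1736 higher in distal and 1442 higher in proximal cells, and lie at all levels, with the largest differences among genes of low level.

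The genes that stood furthest apart were ranked by the gap between populations, which is the lower of the 2 levels in the higher population over the higher of the 2 levels in the other, with every library set to at least 3 counts and at least 50 counts required in both higher libraries. These genes were chosen by their values, so their differences are descriptions. In distal cells the list opened with Itih5 (chromosome 2, 10153571 to 10256529), a hyaluronan-binding heavy chain of the inter-α-trypsin inhibitor family. It had 13.04 and 4.93 CPM in the distal libraries against 3 and 0 counts in the proximal libraries, a ratio of 127 (95% counting interval 43.2 to 619). Sox11 (chromosome 12, 27334264 to 27342574), a transcription factor of embryonic progenitors, had 67.98 and 53.5 CPM against 1.77 and 0.314, a log2 difference (distal minus proximal, ± its standard error) of 5.86 ± 0.99. Penk (chromosome 4, 4133531 to 4138819), the precursor of the enkephalin opioid peptides, had 6.67 and 23.5 CPM against 0 and 0.224, a log2 difference of 6.99 ± 1.54. For each of these genes the weaker distal library was at least 15.8 times as high as the stronger proximal one, which held for all 15 genes listed.

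Among the genes of that list with secreted products, Csn1s2a (chromosome 5, 87774567 to 87788797), a casein of milk, had 98 and 189 counts in the distal libraries and 0 in both proximal libraries, at least 25.4-fold higher. Ctf2 (chromosome 7, 127718106 to 127732166), a cytokine of the interleukin 6 family, had 13.6 and 9.65 CPM against 0.431 and 0.358, and Nppb (chromosome 4, 147985788 to 147987205), which encodes the B-type natriuretic peptide, had 108 and 79 counts against 3 and 0. Dkkl1 (chromosome 7, 45207519 to 45212147), a relative of the Dickkopf inhibitors of Wnt signalling, had 5.44 and 7.07 CPM against 0.335 and 0.224, a log2 difference of 4.46 ± 1.21. In each of these 4 genes the populations lay well apart.

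The remaining distal genes were more varied. Gsdmc4 (chromosome 15, 63891264 to 63912297), of the pore-forming gasdermin family, had 118 and 127 counts against 1 and 0, and Clec2h (chromosome 6, 128662385 to 128677374), a C-type lectin-like protein, had 109 and 106 against 0 in both proximal libraries, at least 25.4-fold higher. Ly6c1 (chromosome 15, 75044018 to 75048830), a membrane-anchored protein of the Ly6 cluster, had 10.8 and 3.96 CPM against 0.240 and 0.134. Dntt (chromosome 19, 41029275 to 41059525), the template-independent DNA polymerase known from lymphocyte receptor rearrangement, had 10.4 and 8.31 CPM against 0.527 and 0.403, a log2 difference of 4.31 ± 1.05. Lrfn5 (chromosome 12, 61523150 to 61858342), a synaptic adhesion protein, had 82 and 67 counts while both proximal libraries had 0, at least 16.1-fold higher. Capn12 (chromosome 7, 28881422 to 28893563), a calpain protease, had 76 and 89 counts against 1 and 3. Fyb2 (chromosome 4, 104913456 to 105016863) had 138 and 129 counts against 3 and 3, and Tex45 (chromosome 8, 3470862 to 3487181) 61 and 68 against 3 and 2. Both distal libraries were close to each other for each of these 3 genes. Gsdmc4, Clec2h and Ly6c1 belong to clusters of similar genes, and Capn12, Ctf2, Fyb2, Lrfn5 and Penk overlap other annotated genes, which counting without strand could not separate.

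In proximal cells the gaps were wider. Glycam1 (chromosome 15, 103562759 to 103565081), a mucin that is secreted in milk and is also the L-selectin ligand of high endothelial venules, had 0 counts in both distal libraries and 3437 and 901 in the proximal libraries, at least 361-fold higher. Its p by edgeR's quasi-likelihood test, 5.79e-05, is unadjusted and belongs to a gene picked by its gap. The smallest FDR over all genes was 0.663. Ccl21a (chromosome 4, 42772860 to 42773993), a chemokine that draws Ccr7-bearing cells, also had 0 counts in both distal libraries and 881 and 210 in the proximal ones, at least 84.1-fold higher. S1pr1 (chromosome 3, 115710433 to 115715072), a sphingosine 1-phosphate receptor, had 1 and 1 counts against 740 and 112, a ratio of 551 (95% counting interval 152 to 4554). Tnfsf15 (chromosome 4, 63727084 to 63745113), a cytokine of the tumour necrosis factor family, had 1 and 0 counts against 679 and 167, and Serpinb1a (chromosome 13, 32842092 to 32851185), an inhibitor of neutrophil proteases, 7 and 2 against 1870 and 246. All 5 genes were higher in the first proximal library than in the second, in the same order as the summed endothelial markers (235 and 28.04 CPM). Each was also above both distal libraries in the second, as were the 4 of 10 endothelial markers higher in both proximal libraries, among them Tie1 (34 counts against 1 and 1). The part of endothelial cells in these 5 differences was not tested. Reads of Ccl21a and Serpinb1a can be shared with near-identical neighbours.

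The other proximal genes were more alike in the 2 proximal libraries. Papss2 (chromosome 19, 32595790 to 32667187), which makes the sulphate donor used to sulphate proteoglycans, had 0.0373 and 0.379 CPM in the distal and 19.02 and 24.9 in the proximal libraries, a log2 difference of -6.67 ± 1.17. Pml (chromosome 9, 58218076 to 58249786), the organizer of nuclear bodies, had 1 and 1 counts against 96 and 106, a ratio of 131 (95% counting interval 35.7 to 1085). Ikbke (chromosome 1, 131254343 to 131279606), a kinase of innate immune signalling, had 3 and 3 counts against 68 and 74, and Fzd9 (chromosome 5, 135248938 to 135251230), a Wnt receptor, 0 and 1 against 62 and 89. Neither gene exceeded 3 counts in distal cells. Sncaip, which binds α-synuclein, had 0 counts in both distal libraries and 123 and 84 in the proximal ones, at least 33.6-fold higher. Fbxo27 (chromosome 7, 28692849 to 28699338), a substrate adaptor of a ubiquitin ligase, also had 0 in both and 82 and 83 counts, at least 33.2-fold higher. The other 4 genes were of varied function. Ap5b1 (chromosome 19, 5568025 to 5571261), a subunit of the AP-5 adaptor, had 0 and 3 counts against 86 and 210. Xylb (chromosome 9, 119357381 to 119393797), xylulokinase, had 3 and 0 against 77 and 118, and Itprid1 (chromosome 6, 55836895 to 55978735) 0 and 7 against 247 and 167. Septin10, a cytoskeletal GTPase, had 1 and 2 counts against 78 and 66. Ikbke, Pml and Xylb overlap other annotated genes.

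**Figure D3:**
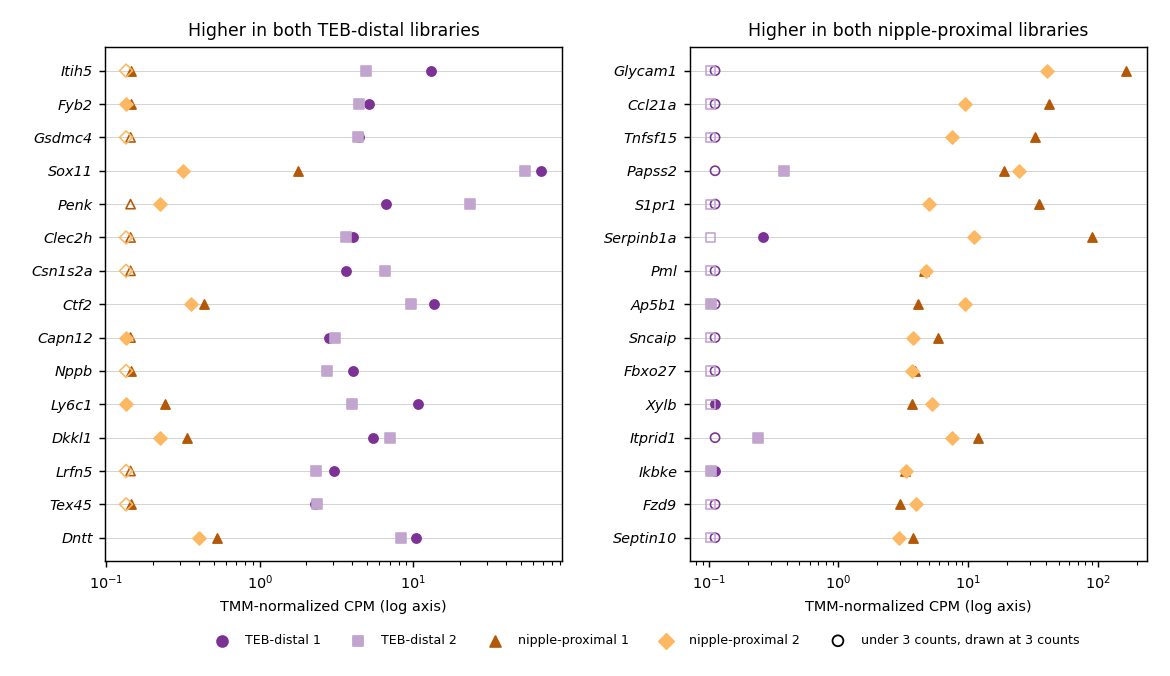
TMM-normalized CPM (log axis) in each library for the 15 genes per direction with the widest gap between populations. Open symbols mark libraries under 3 counts, drawn at 3 counts. On the left the distal libraries lie to the right of both proximal ones, and on the right the order is turned, with Glycam1 at 165 and 40.4 CPM against 0 in both distal libraries.

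Functional families were then read against the background of 11.1% and 9.20%. Among functional families with at least 10 tested members, cell type marker lists left aside, genes of mitosis had the largest share higher in distal cells. Of 43 tested, 17 were higher in both distal and 2 in both proximal libraries, with a median log2 difference of 1.13 against 0.07 over all genes. Their summed level was 574 and 275 CPM in distal and 193 and 212 in proximal libraries. Anln (chromosome 9, 22332012 to 22389188), which encodes a scaffold of the cytokinetic ring, had 10.2 and 8.06 CPM against 0.814 and 1.03, a log2 difference of 3.30 ± 0.99. Nuf2 (chromosome 1, 169497934 to 169531464), part of the kinetochore complex that holds microtubules, had 6.71 and 8.00 CPM against 0.527 and 1.39, and Cenpa (chromosome 5, 30666777 to 30674830), the histone of the centromere, 13.7 and 13.8 against 3.45 and 3.22. Kif23 (chromosome 9, 61915905 to 61946774), a motor of the central spindle, had 2.05 and 4.65 CPM against 0.192 and 0.582. In each of these the populations did not overlap, and the distal libraries of Cenpa nearly coincided. The 2 separated the other way were Kif4 (1 and 1 counts against 17 and 28), a chromosome motor, and Bub1 (0.149 and 0.586 CPM against 1.53 and 0.672), a checkpoint kinase. In all, 9 of the 43 had a negative fitted difference. The 17 included Mki67, Top2a, Cdk1, Cdc20 and Aurka. The counts were, on leaving out single libraries, 18, 25, 26 and 17 higher in distal cells and 3, 4, 2 and 3 higher in proximal cells. DESeq2 called 1 of the 43.

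Promoters of these genes were examined because most members differed in the same direction, 34 of the 43 with a positive fitted difference and 9 with a negative one. Mitotic genes are known for a pair of promoter elements, the cell cycle homology region and the CCAAT box. The letters TTTGAA and CCAAT were searched on both strands in RefSeq windows (GRCm38.p6) of 250 bases before to 50 after each start site. Both were found for 11 of the 17 separated genes (64.7%), for 25 of the 37 listed mitosis genes with a window (67.6%), and for 7.97% of all 27025 genes with one. The separated genes therefore held the pair about as often as the whole list did. The separated genes with the widest gap among those holding the pair are shown, with TTTGAA and CCAAT, or their reverse complements TTCAAA and ATTGG, in capitals.
Cenpa promoter, chr5:30666636-30666935, plus strand: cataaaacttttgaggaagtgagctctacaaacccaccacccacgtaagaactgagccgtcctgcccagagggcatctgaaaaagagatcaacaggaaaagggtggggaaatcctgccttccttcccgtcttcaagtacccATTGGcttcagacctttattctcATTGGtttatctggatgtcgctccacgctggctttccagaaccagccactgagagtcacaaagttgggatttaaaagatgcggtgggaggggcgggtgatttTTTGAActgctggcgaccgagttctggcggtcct
Kif23 promoter, chr9:61946750-61947049, minus strand: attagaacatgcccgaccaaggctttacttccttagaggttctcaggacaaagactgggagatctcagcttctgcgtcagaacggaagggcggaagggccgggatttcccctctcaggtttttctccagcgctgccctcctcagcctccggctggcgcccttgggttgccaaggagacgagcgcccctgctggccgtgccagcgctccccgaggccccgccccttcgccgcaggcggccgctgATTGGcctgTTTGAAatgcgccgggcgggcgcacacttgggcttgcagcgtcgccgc
Cdc20 promoter, chr4:118437294-118437593, minus strand: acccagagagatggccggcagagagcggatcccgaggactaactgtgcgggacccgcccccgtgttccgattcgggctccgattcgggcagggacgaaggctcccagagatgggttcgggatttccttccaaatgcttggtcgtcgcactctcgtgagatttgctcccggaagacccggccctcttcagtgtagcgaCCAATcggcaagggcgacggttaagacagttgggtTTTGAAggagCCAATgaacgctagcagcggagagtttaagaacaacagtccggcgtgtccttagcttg
In the Cenpa window TTTGAA began 16 bases after the start site and was preceded by 2 CCAAT boxes, in the Kif23 window it began 2 bases after the start, and in the Cdc20 window 18 bases before it. No 2 of the capitalized matches overlapped.

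Genes of DNA replication leaned the same way. Of 33 S phase genes tested, 7 were higher in distal and 2 in proximal cells, with a median log2 difference of 0.64 (on leaving out single libraries, 10, 10, 9 and 11 higher in distal cells and 2, 4, 3 and 2 higher in proximal cells). Rrm2 (chromosome 12, 24708241 to 24714146), a subunit of ribonucleotide reductase, had 24.9 and 23.8 CPM against 3.11 and 6.72, a log2 difference of 2.31 ± 0.72. Gins2, part of the replicative helicase, had 5.11 and 12.4 CPM against 1.34 and 1.93, and Chaf1a, a histone chaperone, 1.38 and 4.03 against 0.575 and 0.761. Pola1, the catalytic subunit of DNA polymerase α, and Uhrf1, a DNA methylation factor named here after its values were seen, were the members higher in proximal cells, Pola1 with 0.112 and 1.96 against 7.95 and 2.64 CPM and Uhrf1 with 0.224 and 1.62 against 2.92 and 3.54. Among G1 regulators, 4 of 22 were higher in distal and 0 in proximal cells. Their median log2 difference was 0.50, and the counts were, on leaving out single libraries, 7, 6, 6 and 4 higher in distal cells and 2, 4, 0 and 0 higher in proximal cells. They included both brakes and drivers of division, since Cdkn1c (p57), an inhibitor of cyclin-dependent kinases, had 19.98 and 8.17 CPM against 3.35 and 1.97, and Mycn, a growth-promoting transcription factor, 7.49 and 4.45 against 1.72 and 1.12.

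**Figure D4:**
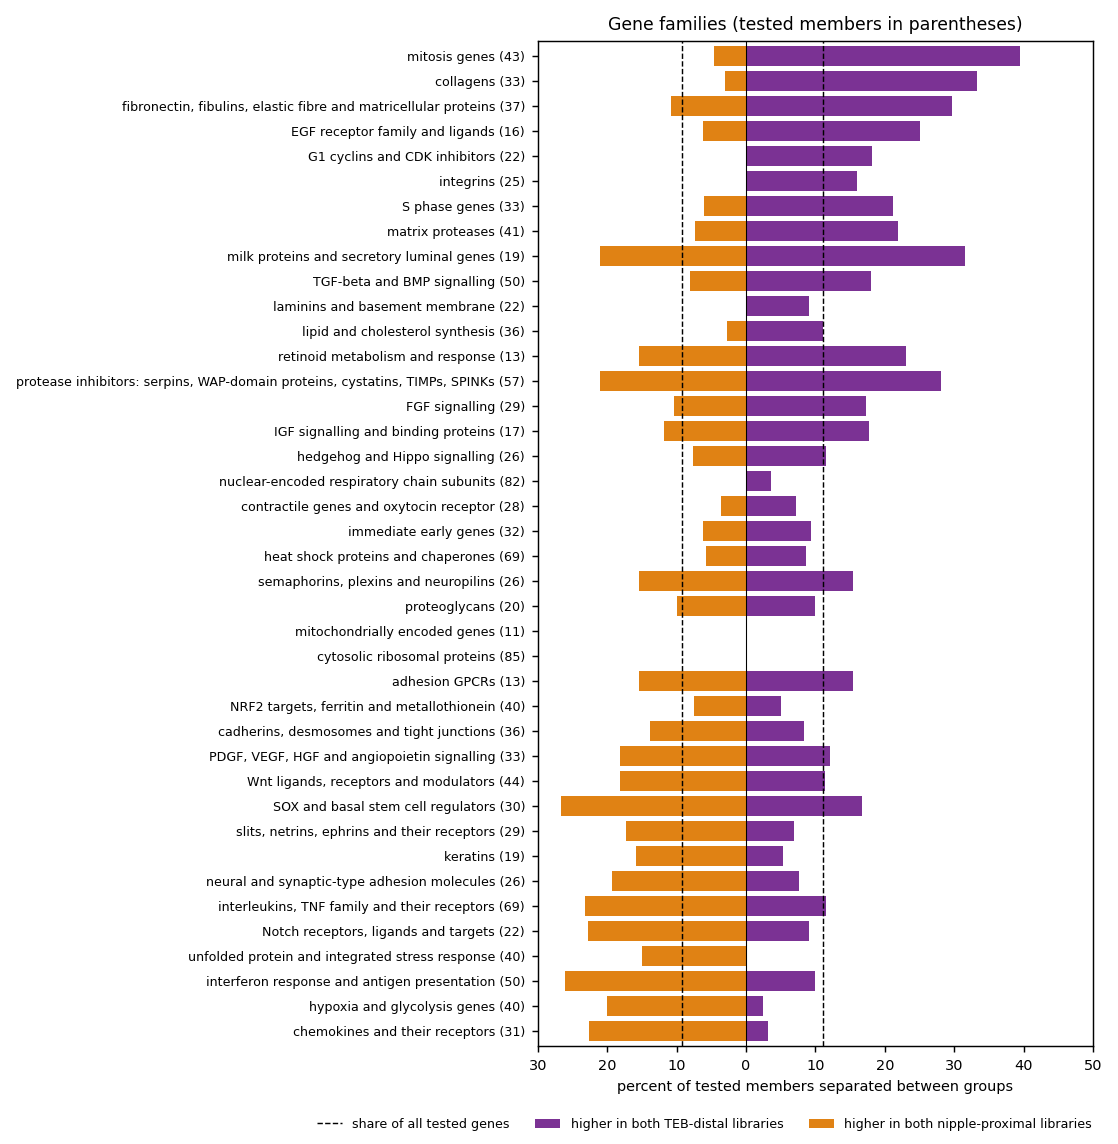
Share of the tested members of each family that were separated between the populations (number tested in parentheses), higher in distal to the right and in proximal cells to the left. Dashed lines mark the shares over all tested genes, 11.1% and 9.20%. Mitosis genes and collagens reach furthest to the right, and interferon, chemokine and hypoxia genes lie mostly to the left.

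Of 33 collagens tested, 11 were higher in distal and 1 in proximal cells, with a median log2 difference of 0.54 (on leaving out single libraries, 3, 5, 1 and 4 higher in proximal cells). The summed level was 2135 and 4766 CPM in distal and 2086 and 1486 in proximal libraries. Col1a2 (chromosome 6, 4504814 to 4541544), a chain of fibrillar type I collagen, had 12.2 and 27.4 CPM against 2.11 and 3.27, a log2 difference of 2.88 ± 0.80. Col6a3 (chromosome 1, 90765923 to 90843971), of the microfibrillar type VI collagen, had 25.2 and 12.8 CPM against 3.78 and 2.02. Col10a1, a collagen of hypertrophic cartilage, had 160 and 13 counts against 1 and 0, almost all of them in the first distal library. The exception was Col6a1, which partners Col6a3 in the same trimer, with 12.4 and 19.02 CPM in the distal and 49.01 and 24.9 in the proximal libraries. Col1a1, Col1a2 and Col3a1 are also on the fibroblast marker list, of which 7 of 9 members were higher in distal cells. Pdgfra, the receptor that defines fibroblasts and is on that list too, had 173 and 121 counts against 1 and 17.

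Fibronectin, fibulins and related glycoproteins numbered 37, of which 11 were higher in distal and 4 in proximal cells. The median log2 difference was 0.65, and the counts were, on leaving out single libraries, 5, 9, 5 and 6 higher in proximal cells. Fn1 (chromosome 1, 71585520 to 71653200), fibronectin itself, had 161 and 176 CPM against 16.8 and 4.79, a log2 difference of 3.97 ± 0.81 with a DESeq2 FDR of 4.53e-05. Spp1 (chromosome 5, 104435118 to 104441050), the secreted phosphoprotein osteopontin, had 1644 and 51.5 CPM in the distal libraries and 4.69 and 7.61 in the proximal ones. The first distal library carried most of the Spp1, yet the second still exceeded both proximal libraries. Spon1, a matrix protein of the floor plate, had 9.36 and 10.6 CPM against 1.96 and 1.07. Nipple-proximal cells led for Ccn3, a matricellular growth regulator with 0 counts in both distal libraries and 132 and 50 in the proximal ones (at least 20.03-fold higher), and for Tnc, tenascin C, with 0.410 and 4.03 CPM against 18.5 and 8.06.

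The basement membrane itself was more even. Of 22 laminins and related proteins, 2 were higher in distal and 0 in proximal cells. Over the list, the median log2 difference was 0.59, and the counts were, on leaving out single libraries, 6, 6, 5 and 2 higher in distal cells and 4, 3, 0 and 2 higher in proximal cells. These were Lama2, a laminin chain of muscle and nerve (191 and 49 counts against 1 and 0), and Npnt, nephronectin, a ligand of integrin α8β1 (6.56 and 5.58 CPM against 1.01 and 0.179). Among proteoglycans and their synthases the counts were 2 and 2 of 20. Their log2 differences had a median of 0.17, or -0.53 without the second distal library and -0.04 without the first proximal library, and the counts were, on leaving out single libraries, 6, 2, 5 and 3 higher in distal cells and 3, 5, 2 and 4 higher in proximal cells. Gpc3, a glypican that modulates growth factor signals, had 38.2 and 38.7 CPM against 9.29 and 9.85, with each pair of libraries nearly identical. Srgn, serglycin, which is stored in secretory granules of blood cells and endothelium, had 2.05 and 3.55 against 30.4 and 18.00, a log2 difference of -3.11 ± 0.75. Integrins were separated in 4 of 25, all higher in distal cells. Their median log2 difference was 0.52, and the counts were, on leaving out single libraries, 8, 8, 10 and 5 higher in distal cells and 2, 4, 0 and 1 higher in proximal cells. These were Itga1 (21.5 and 21.5 CPM against 7.95 and 11.96), a collagen receptor, Itga10 (3.02 and 4.51 against 0.575 and 1.34), another, and a pair of myeloid integrins. Of these, Itgam had 68 and 27 counts in the distal libraries against 15 and 14, and Itgax 31 and 74 against 0 and 2.

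Enzymes that act on matrix were higher in distal cells for 9 and in proximal cells for 3 of 41. The median log2 difference was 0.35, and the counts were, on leaving out single libraries, 17, 11, 13 and 13 higher in distal cells and 9, 9, 5 and 2 higher in proximal cells. Ctsk (chromosome 3, 95499256 to 95509362), a collagen-cleaving cathepsin, had 27.95 and 13.3 CPM against 1.87 and 0.941, a log2 difference of 3.87 ± 0.86 with a DESeq2 FDR of 0.00179. Mmp10 (chromosome 9, 7502352 to 7510240), stromelysin 2, had 13.5 and 6.31 CPM against 0.814 and 0.582, and Adamts20 (chromosome 15, 94270163 to 94465418), a versican-cleaving protease, 9.17 and 6.27 against 0.335 and 0.672. Enzymes that cross-link collagen were divided, since Loxl2 had 6.11 and 7.27 CPM against 1.72 and 0.941 while Lox had 1 and 6 counts against 60 and 86. Adam9, a membrane sheddase, was higher in proximal cells, with 34.8 and 19.9 CPM against 46.6 and 123.

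Inhibitors of proteases formed the largest of the matrix families and were separated in both directions, 16 of 57 higher in distal and 12 in proximal cells. Over the list, the median log2 difference was 0.41, or -0.40 without the second distal library, and the counts were, on leaving out single libraries, 17, 20, 14 and 15 higher in proximal cells. The distal side held 3 inter-α-trypsin inhibitor heavy chains, Itih5, Itih4 (48 and 91 counts while both proximal libraries had 0, at least 12.4-fold higher) and Itih2 (43 and 49 against 0 and 1), together with Serpinb2, an inhibitor of urokinase (4.88 and 6.79 CPM against 1.25 and 0.582). On the proximal side Slpi (chromosome 2, 164354070 to 164389095), an inhibitor of neutrophil elastase, was among the most abundant transcripts, with 1217 and 3507 CPM in the distal and 13101 and 8952 in the proximal libraries, a log2 difference of -2.22 ± 0.88. Serpina3f (chromosome 12, 104214544 to 104221129), a relative of α-1-antichymotrypsin, had 0.224 and 0.379 CPM against 47.95 and 9.81, a log2 difference of -6.55 ± 1.11. Serpina1b, an α-1-antitrypsin, had 0 counts in both distal libraries and 329 and 32 in the proximal ones, at least 12.8-fold higher. The sum over the family was 4296 and 7364 CPM in distal and 16646 and 12258 in proximal libraries. Several serpins sit in clusters of near-identical genes, so that their separate counts are uncertain.

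Cell to cell junctions lay near the background. Of 36 cadherins, desmosomal and tight junction genes, 3 were higher in distal (8.33%) and 5 in proximal cells (13.9%), against 11.1% and 9.20% over all genes. Their log2 differences had a median of -0.11, or 0.02 when libraries were scaled by their totals alone, 0.36 without the second distal library and 0.09 without the first proximal library, and the counts were, on leaving out single libraries, 5, 9, 5 and 5 higher in distal cells and 15, 6, 5 and 4 higher in proximal cells. The distal genes were all claudins, the proteins of tight junctions, namely Cldn3 (22.7 and 13.2 CPM against 7.38 and 2.33), Cldn6 (3.62 and 8.17 against 0 and 0.941) and Cldn10 (14.1 and 2.07 against 0 and 0.493). The proximal genes included Cdh4, retinal cadherin (9.06 and 12.7 CPM against 34.5 and 30.1), Cdh3, the P-cadherin of basal cells (21.7 and 35.3 against 54.99 and 71.5), and the desmosomal genes Dsg2 (35.1 and 33.1 against 60.7 and 87.5) and Pkp1 (16.3 and 24.3 against 55.9 and 42.8). Adhesion molecules first described in nerve cells were separated in 2 and 5 of 26 (median log2 difference 0.29, or -0.40 without the second distal library, and on leaving out single libraries, 7, 7, 3 and 6 higher in distal cells and 6, 9, 4 and 4 higher in proximal cells), with Lrfn3 (0 and 0 counts against 31 and 44) and Cntn2 (0 and 0 against 19 and 38) on the proximal side. Of 13 adhesion G-protein coupled receptors, the family of Gpr125, 2 were higher in each population. Their median log2 difference was 0.81, and the counts were, on leaving out single libraries, 4, 3, 3 and 4 higher in distal cells and 3, 3, 1 and 2 higher in proximal cells. Adgrf5, a receptor of lung and endothelium, had 0.112 and 1.41 CPM against 32.8 and 11.4, and Adgrg1, a collagen III receptor, 27.7 and 75.3 against 150.4 and 82.1, whereas Adgrg2 (23.2 and 10.2 against 6.56 and 6.14) and Celsr1, a planar polarity cadherin (6.00 and 1.14 against 1.05 and 0.806), were higher in distal cells.

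Guidance molecules, which steer axons and other moving cells, were separated on both sides, as were all genes tested (11.1% and 9.20%). The 2 lists are short, and their counts are not read as a trait of the families. Among 26 semaphorins, plexins and neuropilins the counts were 4 and 4 (15.4% each). The median log2 difference was -0.31, or 0.18 without the first proximal library and 0.16 without the second proximal library, and the counts were, on leaving out single libraries, 7, 6, 8 and 3 higher in distal cells and 7, 8, 5 and 5 higher in proximal cells. Sema6d (chromosome 2, 124089969 to 124667770), a membrane-bound semaphorin, had 21.2 and 22.7 CPM in distal and 54.8 and 72.4 in proximal libraries, and Sema6b had 1 and 0 counts against 67 and 17. Plxna4 and Plxna2, which encode receptors for semaphorins, differed in opposite directions, with 2.94 and 0.689 against 18.7 and 7.35 CPM for Plxna4 and 15.7 and 14.8 against 5.08 and 2.82 for Plxna2. The secreted semaphorins Sema3e (15.1 and 10.5 against 3.31 and 5.55 CPM) and Sema3a (1.86 and 3.93 against 1.44 and 0.224) were higher in distal cells. Of 29 slits, netrins, ephrins and their receptors, 2 were higher in distal (6.90%) and 5 in proximal cells (17.2%). Over the list, the median log2 difference was -0.18, or 0.13 without the first distal library and 0.16 without the second proximal library, and the counts were, on leaving out single libraries, 2, 4, 1 and 4 higher in distal cells and 6, 14, 6 and 6 higher in proximal cells. The slit receptors Robo2 and Robo4, the latter an endothelial member of the family, had 0 counts in both distal libraries. In the proximal libraries Robo2 had 14 and 109 counts and Robo4 159 and 13, so that each rested mainly on a different library. Unc5c and Unc5d, receptors for netrin, differed in direction, with 182 and 152 against 24 and 1 counts for Unc5c and 0 and 0 against 14 and 36 for Unc5d. Among the ephrins, Efnb2 had 125 and 63.3 against 29.8 and 50.7 CPM and Efnb1 15.7 and 25.2 against 43.6 and 47.8.

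Of chemokines and their receptors, 1 of 31 was higher in distal and 7 in proximal cells. Their log2 differences had a median of -0.05, or 0.00 when libraries were scaled by their totals alone and 0.18 without the first proximal library, and the counts were, on leaving out single libraries, 5, 4, 5 and 1 higher in distal cells and 11, 10, 6 and 11 higher in proximal cells. Besides Ccl21a, Cxcl13 (chromosome 5, 95956951 to 95961068), an attractant of B cells, had 0 counts in both distal libraries and 151 and 46 in the proximal ones, at least 18.4-fold higher. Ccr7, the receptor of Ccl21a, had 0 and 2 counts against 12 and 57, and Ccrl2, a receptor that binds chemerin, 6 and 0 against 58 and 42. Cxcl9, an interferon-induced chemokine, had 0 in both distal libraries and 134 and 1 in the proximal ones and did not pass the filter, since only 1 library detected it beyond 1 count. The single distal member was Ackr3 (chromosome 1, 90203980 to 90216751), a scavenging receptor of Cxcl12, with 20.3 and 55.9 CPM against 9.63 and 10.2, a log2 difference of 1.94 ± 0.71. Of 69 interleukins, tumour necrosis factor family members and their receptors, 8 were higher in distal and 16 in proximal cells. Their median log2 difference was -0.25, or 0.11 without the first proximal library, and the counts were, on leaving out single libraries, 18, 12, 12 and 8 higher in distal cells and 29, 28, 16 and 23 higher in proximal cells. Tnfrsf9 (4-1BB) had 0 and 4 counts against 490 and 40, and Tnfrsf11b, the decoy receptor osteoprotegerin, 0 and 3 against 50 and 44. On the distal side Tnfrsf19 (Troy), a receptor known from epithelial stem cells, had 36.5 and 17.2 CPM against 3.83 and 1.88, a log2 difference of 3.23 ± 0.79, and Ltb, lymphotoxin β, had 1.45 and 7.93 against 0.383 and 0.358.

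Of interferon-response and antigen presentation genes, 5 of 50 were higher in distal and 13 in proximal cells. The median log2 difference was -0.29, or 0.36 without the first proximal library, and the counts were, on leaving out single libraries, 9, 9, 8 and 5 higher in distal cells and 20, 15, 10 and 20 higher in proximal cells. The summed level was 2323 and 3665 CPM in distal and 4662 and 4908 in proximal libraries. Igtp (chromosome 11, 58199556 to 58207591), an immunity-related GTPase, had 1.04 and 0.448 CPM in the distal and 17.1 and 5.55 in the proximal libraries, a log2 difference of -3.92 ± 1.10. Gbp7, a guanylate-binding protein, had 0.186 and 0.482 CPM against 7.76 and 2.78, and Irf8, a transcription factor of myeloid cells, 3 and 6 counts against 101 and 32. Cd74, the invariant chain of class II antigen presentation, had 6.15 and 10.1 CPM against 44.6 and 29.7 and is also on the leukocyte list, of which 3 of 11 were higher in proximal and 1 in distal cells. The latter was Itgam, an integrin of myeloid cells named after its values were seen, with 2.53 and 0.931 CPM against 0.719 and 0.627. The first proximal library was at least 2-fold above the second in 20 of the 50 and the reverse held in 1. Usp18, which limits interferon signalling (12.9 and 4.76 CPM against 1.68 and 0.269), and Irf1 (20.02 and 20.02 against 11.98 and 6.90) were among the 5 that went the other way.

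The interferon-stimulated response element, taken here as GAAA, any 2 bases and GAAA on either strand, was sought in the same promoter windows. It was found for 4 of 10 separated proximal members with a window (40%), for 22 of 42 on the whole list (52.4%) and for 3.99% of all genes. The members with the widest gap among those holding it are shown with the element, or its reverse complement (TTTC, any 2 bases, TTTC), in capitals.
Gbp7 promoter, chr3:142530086-142530385, plus strand: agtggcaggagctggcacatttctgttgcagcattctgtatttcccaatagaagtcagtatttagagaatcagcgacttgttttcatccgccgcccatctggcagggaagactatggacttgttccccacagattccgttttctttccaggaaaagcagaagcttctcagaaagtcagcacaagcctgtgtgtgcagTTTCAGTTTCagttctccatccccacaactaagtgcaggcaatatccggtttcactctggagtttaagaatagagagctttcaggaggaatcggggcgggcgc
Igtp promoter, chr11:58199306-58199605, plus strand: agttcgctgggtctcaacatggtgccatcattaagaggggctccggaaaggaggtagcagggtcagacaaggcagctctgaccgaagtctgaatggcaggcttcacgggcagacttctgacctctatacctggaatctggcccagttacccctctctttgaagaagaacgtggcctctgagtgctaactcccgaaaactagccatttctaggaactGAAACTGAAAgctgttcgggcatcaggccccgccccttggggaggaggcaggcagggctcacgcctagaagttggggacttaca
Gbp3 promoter, chr3:142559794-142560093, plus strand: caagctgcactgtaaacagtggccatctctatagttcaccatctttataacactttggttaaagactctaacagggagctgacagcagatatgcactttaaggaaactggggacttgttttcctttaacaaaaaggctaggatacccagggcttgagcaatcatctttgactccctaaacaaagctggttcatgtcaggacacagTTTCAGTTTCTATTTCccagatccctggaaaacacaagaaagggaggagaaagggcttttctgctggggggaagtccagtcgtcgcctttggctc
The match began 53 bases before the start site for Gbp7 and 34 before it for Igtp, and the Gbp3 window held 2 overlapping matches. Separated members thus held the element no more often than the whole list did.

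Growth factor families were next compared by role, ligands before receptors. The epidermal growth factor family had 4 of 16 members higher in distal and 1 in proximal cells, although its median log2 difference was -0.02, or 0.08 when libraries were scaled by their totals alone and 0.30 without the second proximal library (on leaving out single libraries, 3, 3, 3 and 2 higher in proximal cells). All 4 were ligands. Nrg1 (75.8 and 80.3 CPM against 44.2 and 29.5), Nrg2 (54 and 139 counts against 3 and 0) and Nrg4 (42 and 94 against 0 and 4) are neuregulins, and Hbegf (77.9 and 77.9 CPM against 43.8 and 28.5) binds the EGF receptor. The ligand Btc, betacellulin, was higher in proximal cells (0.485 and 1.41 CPM against 2.49 and 2.87). Among 29 fibroblast growth factor genes the counts were 5 and 3. Over the list, the median log2 difference was 0.46, or 0.00 without the first distal library, and the counts were, on leaving out single libraries, 7, 13, 6 and 7 higher in distal cells and 4, 5, 4 and 5 higher in proximal cells. Fgfbp1 (chromosome 5, 43978858 to 43981779), which releases fibroblast growth factors from matrix, had 25.5 and 7.72 CPM against 1.01 and 0.403, a log2 difference of 4.55 ± 1.05 with a DESeq2 FDR of 9.78e-04. Fgf23, a hormone of phosphate balance, had 0 counts in both distal libraries and 215 and 26 in the proximal ones, at least 10.4-fold higher.

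Of 33 genes of PDGF, VEGF and related signalling, 4 were higher in distal and 6 in proximal cells. Their log2 differences had a median of 0.04, or -0.40 without the first distal library, -0.24 without the second distal library and -0.35 without the second proximal library, and the counts were, on leaving out single libraries, 8, 7, 6 and 4 higher in distal cells and 13, 13, 7 and 10 higher in proximal cells. Higher in distal cells were Pdgfra and the ligands Ptn, pleiotrophin (65.3 and 21.7 CPM against 4.65 and 5.87, log2 difference 3.05 ± 0.76), and its relative Mdk, midkine (53.3 and 97.6 against 31.3 and 18.3). Angpt2, an angiopoietin made by endothelium, had 6.34 and 0.0689 CPM against 85.5 and 10.1, with the distal libraries far apart. Of 17 genes of insulin-like growth factor signalling, 3 and 2 were separated. Their median log2 difference was -0.03, or 0.00 with DESeq2 size factors, 0.12 when libraries were scaled by their totals alone and 0.27 without the first proximal library, and the counts were, on leaving out single libraries, 4, 3, 3 and 1 higher in distal cells and 3, 5, 4 and 2 higher in proximal cells. The binding proteins Igfbp2 (253 and 877 CPM against 141 and 60.2) and Igfbp3 (129 and 81.3 against 199 and 308) were on opposite sides. Stc1, stanniocalcin 1, a secreted glycoprotein, had 0 and 3 counts against 406 and 47.

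Of 50 genes of TGF-β and BMP signalling, 9 were higher in distal and 4 in proximal cells. The median log2 difference was 0.18, or -0.28 without the second distal library, and the counts were, on leaving out single libraries, 19, 8, 12 and 12 higher in distal cells and 11, 13, 4 and 6 higher in proximal cells. Inhba, which encodes activin A (13.5 and 17.2 CPM against 4.22 and 1.30), Bmp4 (78 and 192 counts against 21 and 0) and the receptor Bmpr1b (13.9 and 4.51 CPM against 0.766 and 0.761, log2 difference 3.59 ± 1.09) were higher in distal cells. Bmp2 was higher in proximal cells (14 and 0 counts against 105 and 59), and so was the BMP antagonist Grem1, with 0 counts in both distal libraries and 41 and 22 in the proximal ones (at least 8.81-fold higher). The ligands Bmp2 and Bmp4, which are close relatives, thus lay on opposite sides, each with 1 library at 0 in the lower population.

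For the 44 Wnt genes the counts were 5 and 8. Over the list, the median log2 difference was -0.18, or 0.02 without the second proximal library, and the counts were, on leaving out single libraries, 12, 8, 7 and 9 higher in distal cells and 10, 16, 12 and 9 higher in proximal cells. Rspo1, a ligand that amplifies Wnt signals, had 0 counts in both distal libraries and 44 and 68 in the proximal ones, at least 18.9-fold higher, and its receptor Lgr5 had 3.62 and 0.827 CPM against 5.27 and 6.90. Wnt10a had 2.91 and 4.58 CPM against 7.04 and 10.3, without overlap. Wnt6 had 68 and 362 counts against 0 and 53, and Wnt5a overlapped between populations (42.4 and 11.4 CPM against 24.6 and 45.95). Among receptors, Ror2 (chromosome 13, 53109312 to 53286124), which binds Wnt5a, had 10.2 and 19.4 CPM against 2.06 and 0.941, a log2 difference of 3.30 ± 0.91, whereas Fzd4 had 57 and 0 counts against 115 and 96. Axin2, a feedback target of β-catenin, was higher in distal cells (3.35 and 6.89 CPM against 1.53 and 0.672), as was the Wnt and BMP antagonist Sostdc1 (44 and 174 counts against 0 and 3). Tcf7, a transcription factor of the same pathway, overlapped (27.7 and 11.6 CPM against 21.7 and 22.8). Notch genes were separated in 2 and 5 of 22. Their log2 differences had a median of -0.03, or 0.00 with DESeq2 size factors, 0.06 when libraries were scaled by their totals alone and 0.08 without the first proximal library. The counts were, on leaving out single libraries, 3, 2, 4 and 1 higher in distal cells and 7, 5, 5 and 5 higher in proximal cells. Without the second distal library, the 5 of 22 stand against 23.1% of all genes tested in that direction. The ligand Dll1 (36.9 and 62.5 CPM against 26.3 and 19.4) and the target Hes1 (19.3 and 21.3 against 11.6 and 6.49) were higher in distal cells, while the target Hey1 (4.17 and 4.20 against 13.3 and 14.5) and Rbpj, the transcription factor of the pathway (26.8 and 28.4 against 45.5 and 138), were higher in proximal cells. Of 26 hedgehog and Hippo genes, 3 and 2 were separated (median log2 difference -0.04, or 0.14 when libraries were scaled by their totals alone, 0.20 without the first distal library and 0.24 without the second proximal library, and on leaving out single libraries, 5, 6, 3 and 3 higher in proximal cells), among them the ligand Ihh (26 and 236 counts against 12 and 0) and the hedgehog transducer Smo (21.3 and 25.6 CPM against 56.5 and 43.9).

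Regulators of cell identity included 30 SOX and basal stem cell genes, of which 5 were higher in distal and 8 in proximal cells. Their median log2 difference was -0.59. The counts were, on leaving out single libraries, 9, 3, 6 and 5 higher in distal cells and 7, 10, 8 and 12 higher in proximal cells. Without the first distal library, the 7 of 30 stand against 22.6% of all genes tested in that direction. With Sox11 stood Mef2c, a transcription factor of muscle and other tissues (21.3 and 26.9 CPM against 7.81 and 14.6). Nipple-proximal cells were higher for Sox10 (chromosome 15, 79154908 to 79165240), a gene of neural crest and of mammary progenitors (26.6 and 35.4 CPM against 98.5 and 64.9), for Sox13 (1 and 0 counts against 41 and 110) and for Msx2, a homeobox gene of skin appendages (0.895 and 0.965 CPM against 6.51 and 4.84). No Hox gene was separated (0 of 4 tested). Among 13 retinoid genes the counts were 3 and 2. The median log2 difference was 0.53, or -1.0 without the second distal library, and the counts were, on leaving out single libraries, 6, 3, 6 and 3 higher in distal cells and 2, 6, 1 and 3 higher in proximal cells. Aldh1a3 (chromosome 7, 66390890 to 66427517), which makes retinoic acid, had 81.3 and 20.8 CPM against 1.25 and 1.93, and Rdh10, which makes its precursor, 103 and 91.6 against 31.2 and 42.95. Aldh1a3 is also on the luminal secretory marker list. The receptors Rara (5.22 and 13.2 against 41.8 and 16.4) and Rxra (10.9 and 12.6 against 31.2 and 15.99) were higher in proximal cells.

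Keratins gave 1 and 3 of 19. Over the list, the median log2 difference was -0.28, or 0.37 without the first distal library and 0.16 without the second proximal library, and the counts were, on leaving out single libraries, 3, 3, 3 and 2 higher in distal cells and 4, 9, 4 and 3 higher in proximal cells. Krt7 (chromosome 15, 101411043 to 101430313), a keratin of simple epithelium, had 119 and 81.6 CPM against 20.1 and 10.8, with a DESeq2 FDR of 0.0116. Krt1, of differentiated epidermis, had 0 counts in both distal libraries and 48 and 46 in the proximal ones, at least 18.4-fold higher, and Krt23 had 15.6 and 45.9 CPM against 71.3 and 275. The basal keratin Krt5 overlapped between populations (217 and 775 CPM against 899.7 and 518). Milk and secretory genes were separated in 6 and 4 of 19. Their log2 differences had a median of 0.30, or -0.28 without the first distal library, -0.37 without the second distal library and -0.04 without the second proximal library, and the counts were, on leaving out single libraries, 7, 7, 3 and 7 higher in proximal cells. The caseins Csn2 (63 and 37 counts while both proximal libraries had 0, at least 8.87-fold higher) and Csn3 (51.96 and 11.3 CPM against 3.21 and 3.18) joined Csn1s2a on the distal side, and Trf, transferrin (66.9 and 8.13 CPM against 104 and 74.6), joined Glycam1 on the proximal side. Csn2, Csn3 and Trf are also on the luminal secretory marker list. Contractile genes were nearly all unseparated, 2 and 1 of 28. In this family the median log2 difference was 0.22, or -0.80 without the second distal library, and the counts were, on leaving out single libraries, 12, 1, 2 and 8 higher in distal cells and 1, 9, 1 and 1 higher in proximal cells. Myl9, a myosin light chain, had 106 and 397 CPM against 77.4 and 68.3.

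Genes of hypoxia and glycolysis leaned towards proximal cells, mainly through low levels in the first distal library. Of 40 hypoxia and glycolysis genes, 1 was higher in distal and 8 in proximal cells, with a median log2 difference of -0.56. Egln3 (chromosome 12, 54178981 to 54203860), an oxygen sensor induced by HIF, had 223 and 288 CPM in the distal and 1279 and 801 in the proximal libraries, a log2 difference of -2.02 ± 0.70 with a DESeq2 FDR of 0.0789. The glucose transporter Slc2a1 had 727 and 2593 CPM against 4181 and 5578, the lactate transporter Slc16a3 31.6 and 133 against 252 and 275, and Ndrg1, a HIF target, 356 and 643 against 1407 and 1661. In each of these the first distal library was the lowest of the 4. Summed over the family, the level was 14755 and 43328 CPM in distal and 42672 and 47529 in proximal libraries. The counts were, on leaving out single libraries, 3, 1, 2 and 2 higher in distal cells and 4, 28, 12 and 7 higher in proximal cells. Without the first distal library, the 4 of 40 stand against 22.6% of all genes tested in that direction. In 26 of the 40 the second distal library was at least 2-fold above the first, and the reverse held in 2.

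The unfolded protein and integrated stress response had 0 of 40 genes higher in distal and 6 in proximal cells, with a median log2 difference of -0.73. Ddit4, a stress-induced inhibitor of mTOR, had 28.8 and 44.3 CPM against 135 and 105, and Pdia4, a protein disulphide isomerase of the endoplasmic reticulum, 298 and 727 against 976 and 2752. The sum of the family was 16485 and 29948 CPM in distal and 24371 and 75238 in proximal libraries, so that the second proximal library alone stood well above the rest. The counts were, on leaving out single libraries, 4, 0, 0 and 1 higher in distal cells and 8, 30, 24 and 3 higher in proximal cells. Without the first distal library, the 8 of 40 stand against 22.6% of all genes tested, and without the second proximal library the 3 against 11.99%. In 29 of the 40 the second distal library was at least 2-fold above the first, with the reverse in 4. The second proximal library was at least 2-fold above the first in 22, with the reverse in 0. Oxidative stress genes were separated in 2 and 3 of 40. Here the median log2 difference was -0.09, or 0.16 without the first proximal library, and the counts were, on leaving out single libraries, 4, 3, 10 and 2 higher in distal cells and 5, 8, 3 and 6 higher in proximal cells. Hmox1 (chromosome 8, 75093621 to 75100589), heme oxygenase 1, had 4934 and 9362 CPM against 17458 and 22153. Heat shock genes were divided 6 and 4 of 69 (median log2 difference 0.16, or -0.09 without the first distal library, and on leaving out single libraries, 11, 14, 6 and 11 higher in distal cells and 16, 12, 9 and 7 higher in proximal cells), with the inducible chaperone Hspa1a at 1593 and 1858 CPM in distal and 562 and 852 in proximal libraries. Immediate early genes, which respond within minutes to handling as well as to growth factors, were divided 3 and 2 of 32 (median log2 difference 0.17, or -0.47 without the second distal library, and on leaving out single libraries, 5, 5, 3 and 5 higher in distal cells and 1, 10, 2 and 4 higher in proximal cells), with Fos (123 and 128 CPM against 269.6 and 325) and Jun (271 and 459.7 against 766 and 707) higher in proximal and Ier5l (20.8 and 82.6 against 8.67 and 3.18) in distal cells.

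**Figure D5:**
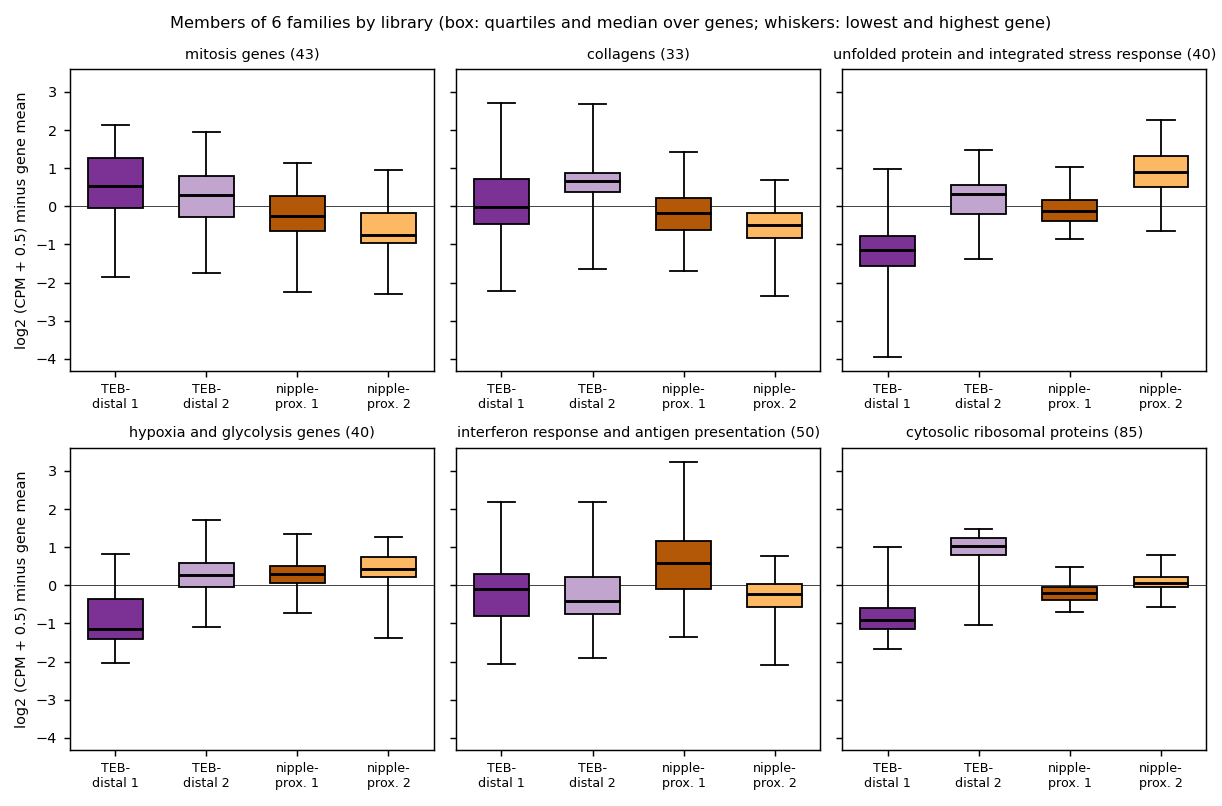
Levels of 6 families in each library as log2 (CPM plus 0.5) minus the mean of the gene over the 4 libraries, with boxes for quartiles and median over genes and whiskers to the lowest and highest gene. Mitosis genes have both distal medians above both proximal ones, whereas cytosolic ribosomal proteins differ most between the 2 distal libraries.

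Several families differed more between the 2 distal libraries than between populations. Cytosolic ribosomal proteins were separated in 0 of 85, although 79 of the 85 had a positive fitted difference with all libraries in (median log2 difference 0.43, or -0.81 without the second distal library). Their sum was 10990.0 and 42341 CPM in distal and 17981 and 22896 in proximal libraries, and 73 of the 85 were at least 2-fold higher in the second distal library than in the first. The counts were, on leaving out single libraries, 48, 0, 0 and 4 higher in distal cells and 1, 26, 0 and 0 higher in proximal cells. Contractile genes showed the same order, with 23 of 28 at least 2-fold higher in the second distal library. Mitochondrially encoded transcripts ran the other way, with a sum of 25528 and 6205 CPM in distal and 11452 and 22474 in proximal libraries and 0 of 11 separated. For this list the median log2 difference was -0.13, or 0.02 when libraries were scaled by their totals alone, 0.39 without the second distal library and 0.64 without the second proximal library, and the counts were, on leaving out single libraries, 0, 3, 0 and 2 higher in distal cells and 4, 0, 2 and 0 higher in proximal cells. Nuclear-encoded subunits of the respiratory chain were separated in 3 and 0 of 82 (median log2 difference 0.39, or -0.09 without the second distal library, and on leaving out single libraries, 19, 9, 17 and 2 higher in distal cells and 1, 8, 0 and 2 higher in proximal cells), and genes of lipid and cholesterol synthesis in 4 and 1 of 36. As a list they had a median log2 difference of 0.09, or -0.20 without the first distal library and -0.09 without the second proximal library, and the counts were, on leaving out single libraries, 2, 12, 8 and 2 higher in distal cells and 7, 5, 1 and 3 higher in proximal cells.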

How the data were processed

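RNA of sorted cells was amplified with SMART-Seq HT, a kit without molecular identifiers, and sequenced on a NovaSeq instrument. Per the paper's methods and the processing notes, the authors aligned reads with STAR to mm10 and deposited raw counts per gene made with HTSeq. The deposited tables are marked as unstranded, and the annotation release is not given in the sources used here. From the deposited counts of 4 libraries (20134890 to 29279042 counts each, 55291 gene symbols), genes were filtered with filterByExpr, scaled with TMM and tested with edgeR 4.0.16 (quasi-likelihood, robust, R 4.3.3), with Benjamini-Hochberg adjustment. DESeq2 1.42.0 and the other alternatives are given in the closing part. The test step was run on simulated counts that gave all 4 libraries the same dispersion. That check does not cover the unequal spread of the distal and proximal libraries seen here. The text names 15 genes per direction with the widest gap (at least 50 counts in both higher libraries, predicted and non-coding genes passed over), up to 4 separated members per direction of each list, or the 2 highest in level, and genes the study discusses. A few genes that the rule selects are not reported here. Members and lists were chosen with earlier results of these data known. Coordinates are GRCm38 from GENCODE M21, which matched 53292 symbols, and 129 of 273 named genes overlap another annotated gene. Depth sets counting precision, and intervals and floors cover counting error only.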

Additional observations from a re-analysis of the deposited data

How the results depend on the processing

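The count of 0 genes called by edgeR's quasi-likelihood test stayed at 0 with DESeq2 size factors, with library totals alone, with all 6 libraries in one model, with at least 50 counts required in 2 libraries, without robust estimation and at an FDR under 0.05. It was 242 with DESeq2, 146 when every gene with at least 1 count was tested, and between 2 and 1366 without one library in turn, which leaves 1 library on one side. With the replicate number as a block it was 34. No paired design was given, since deviations of same-numbered libraries correlated at -0.043 and the labels name no shared source for a number. Leaving out each library under DESeq2 (chosen after seeing the data, as were the leave-one-out and scaling counts of separated family members) gave 1717 and 1946 calls without a TEB-distal library and 30 and 45 without a nipple-proximal one. Separated genes higher in TEB-distal cells numbered 2643 when genes with at least 1 count were kept, 1119 with at least 50 counts in 2 libraries, 844 at 4-fold and 2243 to 3308 without one library. For nipple-proximal cells these numbers were 2592, 839, 604 and 1881 to 3627. By construction the first filter adds genes of few counts, the second tests fewer genes, 4-fold asks for more, and leaving out a library leaves fewer libraries that must not overlap. Medians of gene families changed sign under 1 setting or more in 31 lists (54 values in all), and these values stand beside each family whose median is printed. Scaling by library totals alone raised the median difference of all genes by 0.12 on the log2 scale, and size factors by 0.02. Over the named genes, 2115 of 2448 alternative values kept their direction and side of the threshold, 315 passed it where the reported value had not, and 18 changed sign, in 13 genes. Their log2 differences without one library in turn ran from -0.73 to 1.78 for Acta2, -0.83 to 3.18 for Fabp4, -0.88 to 0.33 for Hoxb2, -1.04 to 0.51 for Hoxb9, -0.24 to 0.82 for Itga6, -2.24 to 0.37 for Krt14, -2.3 to 0.61 for Krt17, -1.69 to 0.13 for Krt5, -1.23 to 0.36 for Rpl4, -0.94 to 0.33 for Tcf7, -1.63 to 0.28 for Wnt5a, -1.98 to 0.45 for mt-Co1 and -0.66 to 1.24 for mt-Cytb. The cause of these changes was not tested. With 2 libraries a side, differences under the spread of the TEB-distal libraries were not detectable, and genes under 3 counts in a library were at the limit of detection.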

Other observations

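Among non-coding RNAs, which lie outside the families described above, 5 that RNA polymerase III is known to transcribe were picked after their values were seen, so that their direction is a description of the choice, and other transcripts of that polymerase were not tallied. Rn7sk, the RNA that holds the elongation factor P-TEFb inactive, had 6438 and 11589 counts in the distal and 504 and 218 in the proximal libraries. Rpph1, the RNA of ribonuclease P, had 650 and 839 against 27 and 22, and Rmrp, of the related ribonuclease MRP, 43 and 109 against 14 and 1. The Y RNAs, which bind the Ro autoantigen, had 559 and 665 against 33 and 17 counts for Rny1 and 127 and 262 against 19 and 6 for Rny3. The populations did not overlap for any of the 5, as for 11.1% of all genes tested in this direction. Whether these counts follow RNA levels in the cells or the preparation of the libraries was not tested.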
